A study of Mus musculus with 12 samples.

Results

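The collagen chain genes were the rows of the full count table whose symbol has the form of Col, a number, a and a number, such as Col1a1. There were 44 of them among 55536 genes. Counts allowed a test for 43 of them, among 19800 genes tested, and Col9a1, which had 0 to 6 counts per library, was not tested. The rule used names alone, but it was set with earlier results of these data known.

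Collagens are the main proteins of the extracellular matrix, and each collagen molecule is a triple helix of alpha chains that are encoded by separate genes. Fibril-forming collagens give tissues their tensile strength, type IV collagen makes the network of basement membranes, and the other families link, decorate or anchor these structures or sit in the plasma membrane. In the pancreas the fibrillar chains are made mainly by stellate cells, fibroblasts and pericytes, and islet basement membrane lies around the capillaries, whose endothelial cells make much of it. Chains are hydroxylated and folded in the endoplasmic reticulum, trimmed by propeptide proteinases and joined by lysyl oxidases outside the cell.

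RNA of mouse pancreatic islets was sequenced in 12 libraries, 3 in each of 4 groups. The control islets are titled PTPN2 +/+ and carry the genotype label PTPN2 fl/fl, and the other islets carry the genotype PTPN2 -/- and are called Ptpn2-bKO in the protocol. Each genotype was kept untreated or given TNF alpha, IL-1beta and INF-gamma (spelled as in the labels) together for 24 h. All mice were 16 weeks old and of a mixed background with C57BL/6J. Each genotype's islets were taken from 3 mice, so some of its 6 libraries share mice, and which ones the labels do not say. The Cre driver behind the bKO name and the exons removed are not stated there either. The study asked how loss of PTPN2, a phosphatase that dampens cytokine signalling, affects beta cells under inflammatory stress.

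Library totals ran from 47064061 to 107515565 counts. The highest was that of replicate 2 of the treated controls, which is among the libraries that stood apart below, and replicates 1 and 3 of that group had 66282389 and 52930884. Levels are counts relative to library size (CPM) after TMM scaling, values within a group are listed in the order of replicates 1, 2 and 3, and a gene is called when its adjusted p over the 19800 genes is under 0.05 in edgeR's quasi-likelihood test. Amounts by which a gene rose or fell are log2 fold changes, with their standard error (SE), unless a fold is named. Beta cell markers such as Ins1 and Ins2 summed to 90117 to 177722 CPM in each library, and none of the 10 was at 0, so the labelled tissue showed its markers. Ptpn2, the targeted gene, was not lower in the libraries labelled bKO: it stood at 30.3, 31.5 and 31.4 CPM in untreated controls, 36.7, 33.8 and 35.5 CPM in untreated bKO-labelled islets, 88.9, 90.4 and 78.3 CPM in treated controls and 111, 84.2 and 107 CPM in treated bKO-labelled islets (adjusted p between genotypes 0.989 untreated and 0.26 treated). A count over the whole gene also holds reads from exons and cells that were not targeted, so it does not settle the genotype, and every genotype comparison rests on the labels.

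A pair of treated libraries stood apart in the collagen genes, in opposite directions. In replicate 2 of the treated bKO-labelled islets, 27 of the 32 members at 1 CPM or more were above the mean of the other 2 libraries of that group, with a median ratio of 1.89 and a range from 0.405 to 5.64. In replicate 2 of the treated controls, 25 of 31 were below that mean, with a median ratio of 0.546. The same ratios over all genes had medians of 1.00 and 0.981. The markers of stellate cells and pericytes moved with the collagens: all 12 were high in the bKO-labelled library (median ratio 2.30) and all 12 were low in the control library (0.648). Ductal markers did so in part, 7 of 8 high (median ratio 1.77) and 6 of 7 low (0.722). So did endothelial markers, 10 of 13 high (1.08) and 13 of 13 low (0.732), and macrophage markers, 10 of 12 high (1.37) and 9 of 12 low (0.861). Acinar markers went the opposite way, with 9 of 9 low in the bKO-labelled library (0.369) and 9 of 9 high in the control library (1.47). Beta cell markers were low in the bKO-labelled library, 10 of 10 with a median ratio of 0.592, and near the other libraries in the control one (0.966). The stellate cell and pericyte markers summed to 563 to 1432 CPM in treated bKO-labelled islets, 378 to 766 CPM in treated controls, 504 to 554 CPM in untreated bKO-labelled islets and 426 to 550 CPM in untreated controls, and none of them was at 0 in any library. The part of these markers in the results below was not tested, and in bulk RNA a change in the number of cells of a type and a change in RNA per cell cannot be told apart. Of 31 members at 1 CPM or more in both treated groups, 25 (80.6%) were high in the one library and low in the other, against 41.6% of 14101 genes. Counts of calls over the collagen genes and their partner lists are therefore also given with both libraries left out, a choice made after seeing the data. The pair was picked by the levels of the collagen genes themselves. Leaving it out therefore moves the fold changes of most of these genes and narrows their spread. Values and p-values of that fit show how far a result depends on the pair and are no independent support for it.

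**Figure D1:**
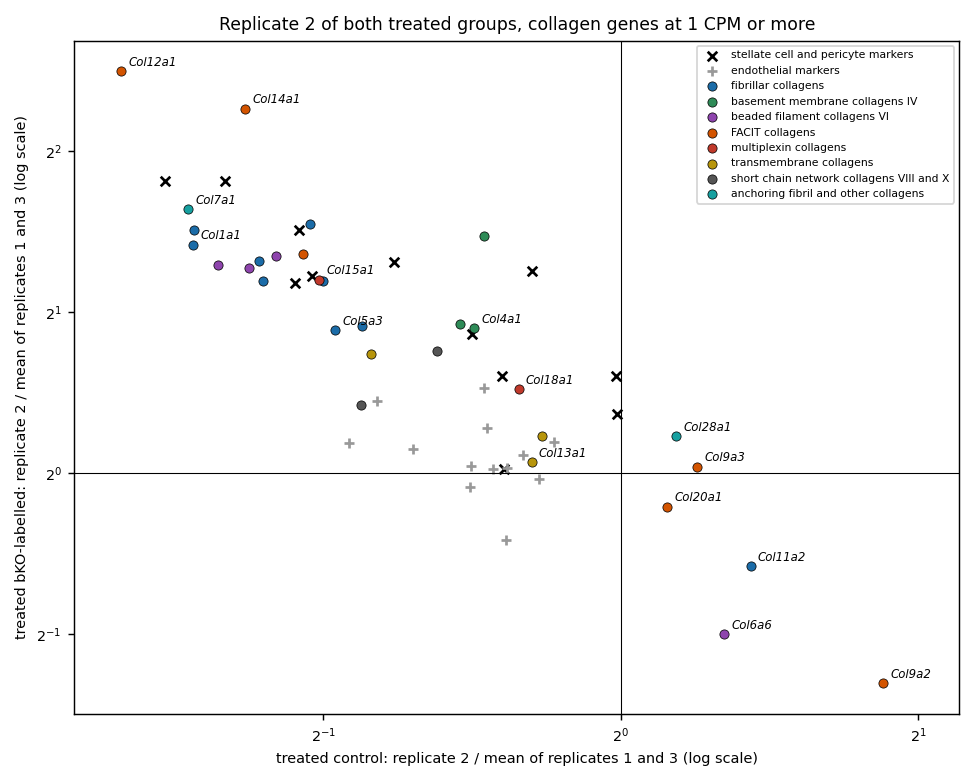
Ratio of replicate 2 to the mean of replicates 1 and 3 in the treated control islets (horizontal, log scale) and in the treated bKO-labelled islets (vertical, log scale), for collagen genes at 1 CPM or more coloured by class and for stellate cell, pericyte and endothelial markers. Of 31 collagen genes, 25 sit in the upper left field, high in the bKO-labelled library and low in the control library, and Col6a6, Col9a2, Col11a2 and Col20a1 lie on the opposite side.

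After the cytokines, 15 of the 43 tested collagen genes were called in control islets, 5 higher and 10 lower, where 60.6% of all genes were called (26.8% higher and 33.9% lower). In bKO-labelled islets 15 were called as well, 8 higher and 7 lower, where 62.4% of all genes were called (28.8% higher and 33.6% lower). The share of the collagen genes called was 34.9% in each genotype, below the background in this fit. The median log2 fold change of the 43 genes was -0.10 in controls and 0.32 in bKO-labelled islets, against -0.10 and -0.06 over all genes tested. Both the share in controls and the medians turned on the pair of libraries that stood apart. With both left out, 28 collagen genes (65.1%) were called in controls, 17 higher and 11 lower, near the 62.8% of all genes called in the same fit. In bKO-labelled islets 19 (44.2%) were called, 9 higher and 10 lower, against 64.8% of all genes. In that fit the median was 0.10 over the collagen genes in controls and 0.02 in bKO-labelled islets, so the order of the genotypes turned, and without replicate 2 of the treated bKO-labelled islets alone the latter was 0.02 as well. With no filter on low counts, the shares were 36.4% of collagen genes against 34.1% of all genes in controls and 43.2% against 35.0% in bKO-labelled islets. There were 7 members called in both genotypes, and each had the same direction in both: Col5a3 and Col23a1 rose, and Col6a6, Col13a1, Col15a1, Col25a1 and Col26a1 fell. Col26a1, which lies outside the naming rule because it stayed below 1 CPM, is named here after its values were seen, and its call in bKO-labelled islets was lost with both libraries left out (adjusted p = 0.0742).

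**Figure D2:**
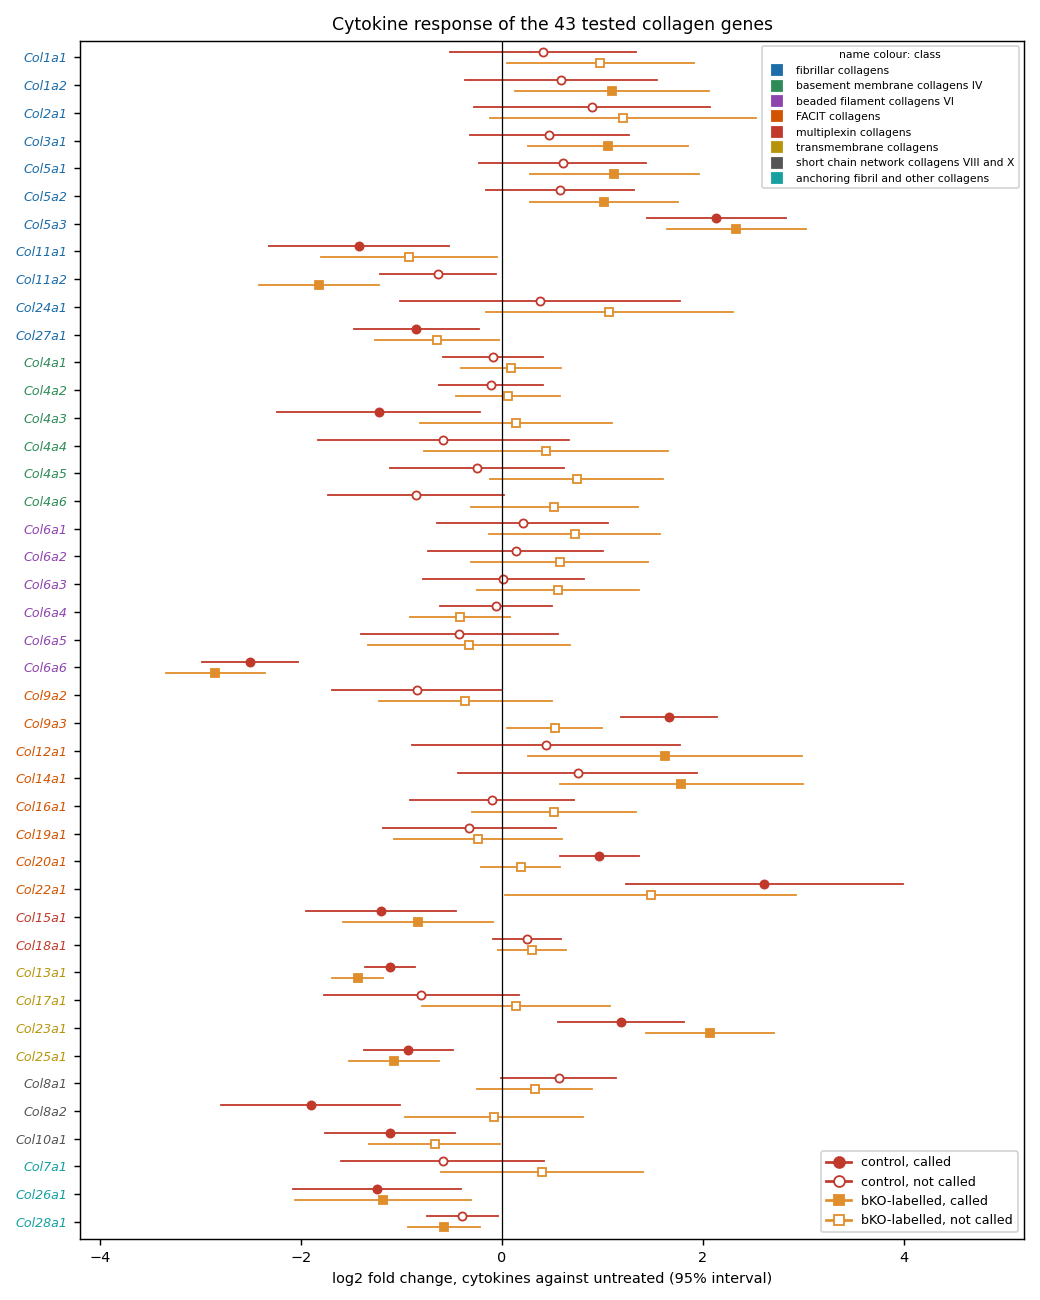
log2 fold change of each of the 43 tested collagen genes with its 95% interval, cytokine-treated against untreated islets, in controls (circles) and in bKO-labelled islets (squares), grouped by class and filled where called. Col5a3 and Col23a1 lie to the right in both genotypes and Col6a6 and Col13a1 to the left, while the intervals of Col4a1 and Col4a2 span 0.

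Of the 7 members called in both genotypes, Col5a3, Col23a1, Col6a6, Col13a1 and Col25a1 were called in the same direction in both under all 23 alternative settings. The sequences just upstream of the 4 most abundant of these, chosen after their values were seen, are shown because none of these settings changed their cytokine calls. They are RefSeq's (GRCm38.p6), 5′ to 3′ on the gene's strand: Col5a3 at chr9:20815068-20815317 (minus strand), Col23a1 at chr11:51289670-51289919 (plus strand), Col6a6 at chr9:105828161-105828335 (minus strand) and Col13a1 at chr10:61979109-61979358 (minus strand). Capitals mark matches, on either strand and including overlapping ones, to GGGNNNNNCC, a loose form of the site that NF-kB factors bind.
Col5a3: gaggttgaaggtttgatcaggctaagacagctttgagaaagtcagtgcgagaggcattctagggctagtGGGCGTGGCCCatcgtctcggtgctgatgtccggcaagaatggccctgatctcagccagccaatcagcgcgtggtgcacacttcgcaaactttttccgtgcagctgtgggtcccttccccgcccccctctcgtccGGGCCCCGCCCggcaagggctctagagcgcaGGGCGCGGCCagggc
Col23a1: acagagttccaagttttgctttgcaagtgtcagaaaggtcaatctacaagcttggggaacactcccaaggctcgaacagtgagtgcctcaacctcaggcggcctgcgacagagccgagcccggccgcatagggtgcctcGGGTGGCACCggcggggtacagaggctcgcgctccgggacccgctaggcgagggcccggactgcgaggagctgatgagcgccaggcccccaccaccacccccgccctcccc
Col6a6: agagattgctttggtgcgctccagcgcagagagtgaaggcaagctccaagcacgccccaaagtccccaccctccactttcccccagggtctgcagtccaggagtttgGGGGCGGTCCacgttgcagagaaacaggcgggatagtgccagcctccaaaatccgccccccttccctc
Col13a1: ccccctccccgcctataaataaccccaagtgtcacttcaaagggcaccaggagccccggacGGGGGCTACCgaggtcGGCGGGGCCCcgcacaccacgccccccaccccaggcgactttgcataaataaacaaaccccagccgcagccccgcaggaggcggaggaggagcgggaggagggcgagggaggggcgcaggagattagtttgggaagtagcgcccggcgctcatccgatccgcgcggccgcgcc
There were 5 matches upstream of Col5a3, 1 each upstream of Col23a1 and Col6a6 and 2 upstream of Col13a1, so genes that rose and genes that fell both held the letters. The window of Col6a6 is 175 bases, since the rest of it is annotated as exon, and the other windows are 250 bases. Over all RefSeq promoter windows, 45.8% of 32851 held such a match, and 28 of 38 windows of collagen genes (73.7%) did. The collagen windows were richer in G and C, with a median of 59.0% against 52.4%. TTCNNNGAA, the form of site that STAT factors bind, was in none of the 4 sequences, in 2 of the 38 collagen windows and in 7.02% of all windows. A match is a string of letters and no measure of binding.

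By level per kilobase of exon, Col1a1 led all other collagen genes in each group, with 158 CPM per kb in untreated controls. Col3a1 followed with 53.6, Col4a1 with 47.8, Col4a2 with 41.0 and Col1a2 with 30.3 CPM per kb. Over all libraries Col1a1 held 24.9% of the collagen CPM, Col3a1 12.9% and Col1a2 9.79%, and the 13 most abundant members together held 93.3%. The summed level of the 44 genes was 4380 ± 518 CPM (SD, n = 3) in untreated controls, 5630 ± 2334 CPM in treated controls, 4783 ± 714 CPM in untreated bKO-labelled islets and 8502 ± 4645 CPM in treated bKO-labelled islets. The pair of treated replicates 2 lay at the ends, at 3186 and 13862 CPM, and the ranges of treated and untreated libraries overlapped in controls.

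Col1a1 and Col1a2 encode the chains of type I collagen, the main fibrillar collagen of connective tissue. Col1a1 stood at 893, 1087 and 1128 CPM in untreated controls and at 2001, 644 and 1484 CPM in treated controls. In bKO-labelled islets it stood at 1405, 995 and 1013 CPM untreated and at 1514, 3850.4 and 1365 CPM treated. Treated and untreated libraries overlapped in both genotypes, and Col1a1 was called in neither, with a log2 fold change of 0.41 (SE 0.42, adjusted p = 0.419) in controls against 0.98 (SE 0.42, adjusted p = 0.063) in bKO-labelled islets. Col1a2 behaved much like it in controls at 0.59 (SE 0.44, adjusted p = 0.262), and in bKO-labelled islets it rose by 1.10 (SE 0.44, adjusted p = 0.0474), just past the threshold. That call was kept in 11 of 23 alternative settings. Without both libraries Col1a1 rose by 0.80 in controls (adjusted p = 0.00135) and had a log2 fold change of 0.40 in bKO-labelled islets (adjusted p = 0.0535), and Col1a2 rose by 0.98 and 0.47 (adjusted p = 0.000467 and 0.0358).

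Col3a1, which forms the homotrimer of type III collagen, stood at 447, 545 and 587 CPM in untreated and 1053, 391 and 745 CPM in treated controls. bKO-labelled islets had 660.4, 525 and 508 CPM untreated and 830.3, 1878 and 815 CPM treated. The bKO-labelled groups did not overlap and Col3a1 rose there by 1.06 (SE 0.36, adjusted p = 0.0243), whereas in controls the groups overlapped and the log2 fold change was 0.47 (SE 0.36, adjusted p = 0.276). Col5a1 and Col5a2, the chains of type V collagen that set the diameter of type I fibrils, followed the same course. In bKO-labelled islets Col5a1 rose by 1.12 (SE 0.38, adjusted p = 0.0239) and Col5a2 by 1.02 (SE 0.34, adjusted p = 0.0207), and in controls neither was called, at 0.60 and 0.57 (adjusted p = 0.189 and 0.158). Leaving out both libraries gave a call for all 3 genes in each genotype, from 0.83 to 0.96 in controls and from 0.56 to 0.60 in bKO-labelled islets. When replicate 2 of the treated bKO-labelled islets alone was left out, Col23a1 and Col5a3 were the 2 members called higher in that genotype, and Col1a2, Col3a1, Col5a1 and Col5a2 were not.

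**Figure D3:**
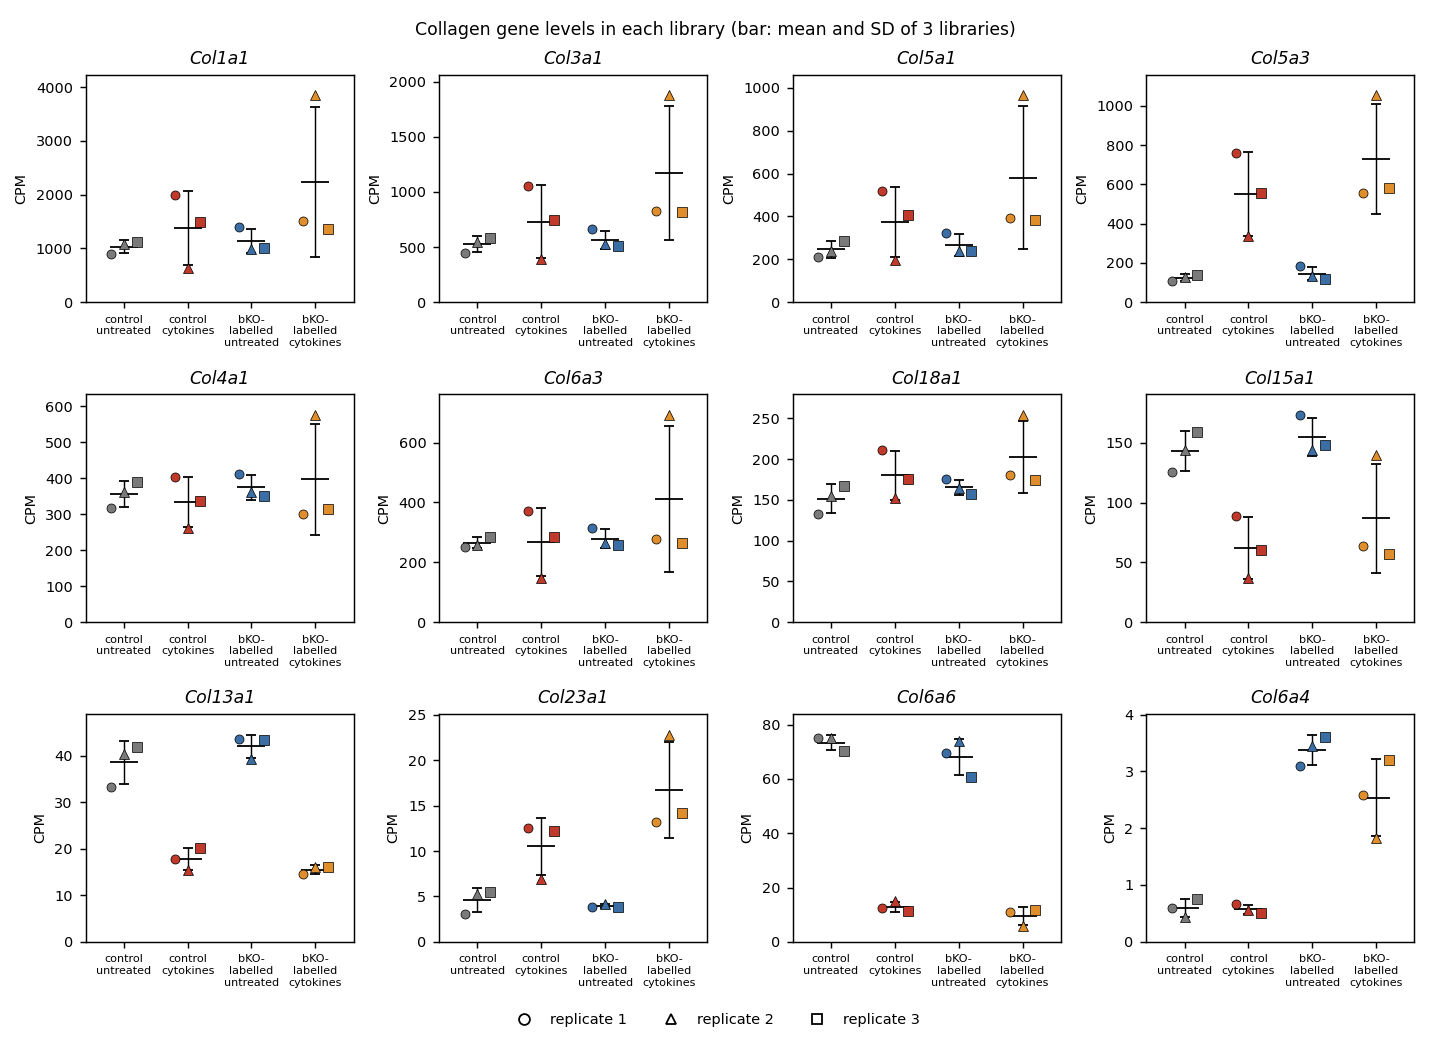
Level in CPM of 12 collagen genes in each of the 12 libraries, with the mean and SD of the 3 libraries of a group as bars and the replicate number as the marker's shape. Replicate 2 (triangle) is the highest treated bKO-labelled library for Col1a1, Col3a1, Col5a1, Col4a1, Col6a3 and Col18a1 and the lowest treated control library for the same genes, while Col6a6 and Col13a1 are low in all 6 treated libraries.

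Col5a3 encodes a further chain of type V collagen, which is found in a narrower set of tissues than the other chains, at chr9:20770050-20815067 (minus strand) in GRCm38. It stood at 108, 129 and 140.0 CPM in untreated and 762, 339 and 554 CPM in treated controls. The bKO-labelled islets gave 183, 135 and 117 CPM untreated and 558, 1054 and 581 CPM treated. All 6 treated libraries were above all 6 untreated ones, replicates 2 included. The gene rose 4.39-fold in controls, a log2 fold change of 2.13 (SE 0.31, adjusted p = 0.000122), and 5.04-fold in bKO-labelled islets, 2.33 (SE 0.32, adjusted p = 6e-05). Per kilobase it went from below Col5a1 in untreated controls, 18.5 against 29.0 CPM per kb, to above it in treated controls, 81.0 against 44.1 CPM per kb.

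Ratios between chains within a library do not depend on library scaling. The ratio of Col5a3 to Col5a1 counts was 0.513, 0.536 and 0.487 in untreated controls and 1.47, 1.70 and 1.36 in treated controls. It was 0.564, 0.565 and 0.494 in untreated and 1.42, 1.09 and 1.52 in treated bKO-labelled islets. Every treated library was thus above every untreated one, so that Col5a3 shifted relative to Col5a1. The ratio of Col5a1 to Col5a2 overlapped between treated and untreated libraries. It was 0.878 to 0.961 in untreated and 0.823 to 1.03 in treated controls, and 0.826 to 0.937 and 0.899 to 0.981 in bKO-labelled islets. Treated and untreated libraries also separated, over a narrower range, in the ratio of Col6a1 to Col6a2, which was 1.09, 1.06 and 1.08 in untreated and 1.11, 1.20 and 1.13 in treated controls, and 1.05, 1.05 and 1.04 and 1.21, 1.16 and 1.13 in bKO-labelled islets. They overlapped in the ratio of Col4a1 to Col4a2, which lay between 1.30 and 1.37 in all 12 libraries, and in that of Col4a3 to Col4a4. In the ratio of Col6a3 to Col6a1 they overlapped in bKO-labelled islets. In controls that ratio was 2.18 to 2.69 untreated and 2.02 to 2.16 treated. The ratio of Col1a1 to Col1a2 was 2.71, 2.88 and 2.66 in untreated and 2.37, 2.43 and 2.52 in treated controls, and 2.67, 2.62 and 2.72 and 2.54, 2.40 and 2.56 in bKO-labelled islets, so all 6 treated libraries were below all 6 untreated ones. These ratios were described and not tested.

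**Figure D4:**
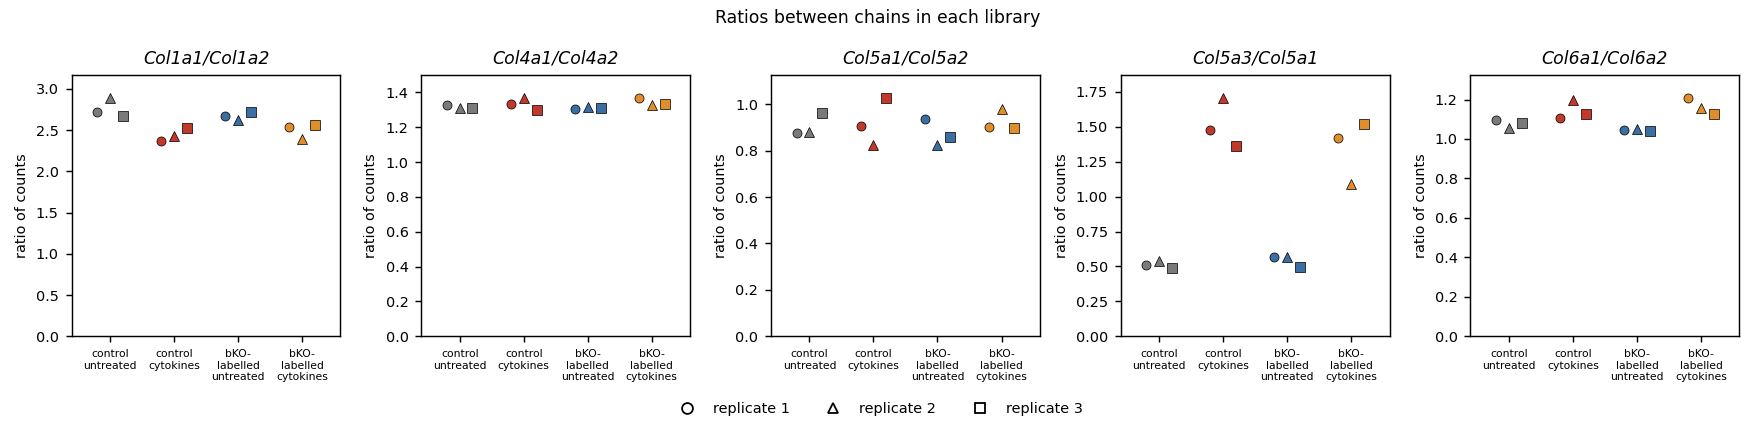
Ratio of counts between partner chains in each of the 12 libraries, by group, with the replicate number as the marker's shape. The treated libraries of Col5a3 to Col5a1 lie at 1.09 to 1.70, above the untreated range of 0.487 to 0.565. Those of Col1a1 to Col1a2 lie below their untreated range and those of Col6a1 to Col6a2 above it, by less. Treated and untreated libraries overlap for Col5a1 to Col5a2, and Col4a1 to Col4a2 stays between 1.30 and 1.37.

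Of the fibrillar chains known from cartilage, Col11a1 and Col27a1 fell in controls and Col11a2 fell in bKO-labelled islets. Col11a1, which helps to nucleate fibrils, stood at 3.82, 3.50 and 4.59 CPM in untreated and 1.87, 0.877 and 1.74 CPM in treated controls, where it fell by 1.42 (SE 0.41, adjusted p = 0.00998) on the log2 scale. In bKO-labelled islets it stood at 5.40, 3.70 and 4.55 CPM untreated and 1.53, 4.23 and 1.36 CPM treated and was not called at -0.92 (SE 0.40, adjusted p = 0.0622), with replicate 2 within the untreated range. Its partner Col11a2 stood at 22.2, 17.8 and 13.4 CPM in untreated and 5.81, 3.80 and 5.54 CPM in treated bKO-labelled islets, where it fell by 1.82 (SE 0.27, adjusted p = 0.000127) on the log2 scale. In controls Col11a2 stood at 7.36, 14.2 and 9.13 CPM untreated and 6.09, 7.92 and 5.62 CPM treated, the groups overlapped, and it was not called at -0.64 (SE 0.26, adjusted p = 0.0533). Unlike most members, Col11a2 was low in the bKO-labelled replicate 2 and high in the control replicate 2. Col27a1, another cartilage fibrillar chain, fell in controls by 0.85 (SE 0.28, adjusted p = 0.0213) on the log2 scale and was not called in bKO-labelled islets at -0.65 (SE 0.28, adjusted p = 0.0653). Without both libraries, Col11a1, Col11a2 and Col27a1 were called lower in each genotype, from -0.57 to -1.59. Col2a1, the main fibrillar chain of cartilage, and Col24a1 stayed below 1 CPM in every group and were not called, with log2 fold changes for Col2a1 of 0.90 and 1.21 (adjusted p = 0.166 and 0.101).

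The basement membrane chains Col4a1 and Col4a2 were called in neither genotype, with or without the pair of replicates 2. Their genes lie head to head on chromosome 8 and overlap by 22 bases. Col4a1 stood at 319, 361 and 390.1 CPM in untreated and 404, 263 and 336 CPM in treated controls, and at 412, 361 and 349 CPM in untreated and 302, 576 and 316 CPM in treated bKO-labelled islets. Its groups overlapped in both genotypes, and the log2 fold changes were -0.09 in controls (95% interval -0.59 to 0.40, adjusted p = 0.737) and 0.09 in bKO-labelled islets (-0.41 to 0.59, adjusted p = 0.752). Col4a2 gave -0.11 (-0.63 to 0.40) and 0.06 (-0.46 to 0.57). These intervals still allow a change of about -0.63 or 0.59 on the log2 scale. Scaled by library totals alone, the 2 bKO-labelled values turned to -0.13 and -0.16. The 4 further type IV genes, Col4a3 to Col4a6, were at most 4.66 CPM in any group, and of them only Col4a3, under 1 CPM and outside the naming rule, was called, lower in controls, a call lost without the pair (adjusted p = 0.0512).

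Over all genes, 33.9% were called lower after cytokines in controls and 33.6% in bKO-labelled islets. Endothelial markers, unlike Col4a1 and Col4a2, fell together: 13 of 13 were called lower in controls and 12 of 13 in bKO-labelled islets. Their summed level was 850 to 1115 CPM in untreated and 249 to 350 CPM in treated controls, and 962 to 996 CPM in untreated and 308 to 414 CPM in treated bKO-labelled islets, with none at 0. Col15a1 and Col18a1 belong to the multiplexins of the basement membrane zone, and the fragment endostatin is cut from the chain of Col18a1. Col15a1 stood at 126, 144 and 159 CPM in untreated and 89.1, 37.0 and 60.1 CPM in treated controls, and fell there by 1.20 (SE 0.34, adjusted p = 0.00967) on the log2 scale. bKO-labelled islets had 173, 144 and 148 CPM untreated and 64.0, 139 and 57.2 CPM treated, with every treated library below every untreated one, and Col15a1 fell by 0.83 (SE 0.34, adjusted p = 0.0498) on the log2 scale. That call was at the threshold and was kept in 12 of 23 alternative settings, and without both libraries the fall was 1.29 (adjusted p = 2.78e-05). Col18a1 stood at 133, 154 and 167 CPM in untreated and 211, 153 and 176 CPM in treated controls and was called in neither genotype, at 0.25 (SE 0.15, adjusted p = 0.183) and 0.29 (SE 0.15, adjusted p = 0.116). Without both libraries Col18a1 was called higher in controls, at 0.41 (adjusted p = 0.00531), as it was without the bKO-labelled one alone, at 0.32 (adjusted p = 0.0216), and in bKO-labelled islets DESeq2 and its size factors called it at 0.36. Whether the lower endothelial markers bear on Col15a1 was not tested.

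Type VI collagen forms beaded filaments around cells, in which the chains of Col6a1 and Col6a2 join that of Col6a3, Col6a4, Col6a5 or Col6a6. The 3 abundant chains were not called in either genotype. Col6a3 stood at 250.3, 258 and 285 CPM in untreated and 372, 147 and 283 CPM in treated controls, and at 316, 266 and 256 CPM in untreated and 279, 692 and 264 CPM in treated bKO-labelled islets. Replicates 1 and 3 of the treated bKO-labelled islets lay within the untreated range and replicate 2 was far above it. The log2 fold changes of Col6a1, Col6a2 and Col6a3 were 0.20, 0.13 and 0.01 in controls and 0.73, 0.57 and 0.56 in bKO-labelled islets, and the control values were negative with scaling by library totals. Without both libraries they rose in controls by 0.57, 0.52 and 0.36 and were 0.23, 0.07 and 0.02 in bKO-labelled islets, where none was called.

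Col6a6 lies at chr9:105687809-105828160 (minus strand) and had the largest fall of the tested collagen genes in both genotypes. It stood at 75.1, 75.0 and 70.2 CPM in untreated and 12.3, 15.0 and 11.3 CPM in treated controls. The bKO-labelled islets gave 69.4, 74.1 and 60.8 CPM untreated and 11.1, 5.67 and 11.6 CPM treated. No treated library came near the untreated range. The fall was 5.69-fold in controls, a log2 fold change of -2.51 (SE 0.22, adjusted p = 2e-06), and 7.22-fold in bKO-labelled islets, -2.85 (SE 0.22, adjusted p = 7.97e-07). Replicate 2 of the treated bKO-labelled islets was the lowest of its group for Col6a6 while it was the highest for Col6a1, Col6a2 and Col6a3. Col6a5, its neighbour on the same strand, was at most 0.549 CPM in any group and was not called with all libraries. Without both treated replicates 2 Col6a5 was called lower in bKO-labelled islets, at -1.09 (adjusted p = 0.0475). Without the bKO-labelled one alone it was called there as well (adjusted p = 0.0422).

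Col6a4, the next gene in that row, at chr9:105989454-106096783 (minus strand), was the one collagen gene called between the genotypes. It stood at 3.09, 3.44 and 3.61 CPM in untreated bKO-labelled islets against 0.595, 0.436 and 0.752 CPM in untreated controls. After cytokines it stood at 2.59, 1.84 and 3.20 CPM against 0.663, 0.557 and 0.501 CPM. All 6 bKO-labelled libraries were above all 6 control libraries. The difference was 5.62-fold in untreated islets, a log2 value of 2.49 (SE 0.25, adjusted p = 0.00186), and 4.40-fold in treated islets, 2.14 (SE 0.25, adjusted p = 0.0098). In untreated islets 1 of 43 collagen genes was called where 0.0758% of all genes were, and in treated islets 1 of 43 where 0.232% of all genes were. The cytokines did not change Col6a4 past the test in either genotype, at -0.06 (SE 0.26, adjusted p = 0.85) in controls against -0.42 (SE 0.23, adjusted p = 0.129) in bKO-labelled islets. The call in untreated islets was kept in all 23 alternative settings. That in treated islets was kept in 20, and was lost with the compared groups fitted alone and without replicate 2 or without replicate 3 of the treated controls, where the adjusted p reached 0.242. Without both treated replicates 2, Col6a4 was again the 1 collagen gene called in each.

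No gene near Col6a4 was called with it. Of 37 other tested genes within 1 Mb, 0 were called between the genotypes in untreated islets, with the smallest adjusted p at 0.658 and the largest log2 difference at 0.61 in size. Annotated genes on the opposite strand, Gm47575 and Gm36993, share 162 and 127 bases with its exons, and their own totals were 1 and 0 counts.

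Members of the transmembrane class, which span the plasma membrane and can be shed, changed in both directions. Col13a1, found at cell junctions and the neuromuscular junction, stood at 33.3, 40.5 and 42.0 CPM in untreated and 17.7, 15.4 and 20.3 CPM in treated controls, and at 43.6, 39.3 and 43.4 CPM in untreated and 14.5, 16.0 and 16.1 CPM in treated bKO-labelled islets. The treated libraries were all low and close together, replicates 2 included, and Col13a1 fell by 1.12 (SE 0.11, adjusted p = 6.86e-06) in controls and by 1.44 (SE 0.12, adjusted p = 9.11e-07) in bKO-labelled islets on the log2 scale. Col25a1, whose chain was described from amyloid plaques, fell by 0.93 (SE 0.20, adjusted p = 0.00189) and 1.08 (SE 0.21, adjusted p = 0.000773), from means of 3.32 and 3.40 CPM. Col23a1 stood at 3.05, 5.30 and 5.49 CPM in untreated and 12.5, 6.90 and 12.2 CPM in treated controls, and at 3.89, 4.22 and 3.82 CPM in untreated and 13.2, 22.8 and 14.2 CPM in treated bKO-labelled islets. Groups did not overlap in either genotype, and Col23a1 rose by 1.19 (SE 0.28, adjusted p = 0.00362) in controls and by 2.07 (SE 0.29, adjusted p = 7.82e-05) in bKO-labelled islets. Col17a1, a chain of hemidesmosomes, stayed below 1 CPM and was not called.

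The FACIT collagens bind to the surface of fibrils rather than forming them. Col12a1 and Col14a1, found on type I fibrils, had the largest rise in the bKO-labelled replicate 2, at 5.64 and 4.80 times the mean of the other 2 libraries. Col12a1 stood at 31.3, 28.4 and 38.4 CPM in untreated and 65.5, 18.0 and 49.6 CPM in treated controls, and at 39.0, 34.2 and 34.1 CPM in untreated and 43.2, 243 and 43.1 CPM in treated bKO-labelled islets. It rose in bKO-labelled islets by 1.62 (SE 0.62, adjusted p = 0.0392) and Col14a1 by 1.79 (SE 0.55, adjusted p = 0.0146), while in controls they had 0.44 and 0.75 (adjusted p = 0.556 and 0.251). The call of Col12a1 was kept in 11 of 23 alternative settings and that of Col14a1 in 21. Without replicate 2 of the treated bKO-labelled islets alone neither was called there, at 0.33 and 0.66 (adjusted p = 0.431 and 0.066). Without both libraries the rises in bKO-labelled islets shrank to 0.33 and 0.66 (adjusted p = 0.0494 and 0.00239), and both genes rose in controls by 0.87 and 1.12 (adjusted p = 0.000155 and 4.66e-05). Col16a1, at 63.7 ± 12.3 CPM (SD, n = 3) in untreated controls, was called in neither genotype.

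Col20a1 and Col9a3 rose in controls and had no call in bKO-labelled islets. Col20a1 stood at 3.18, 5.26 and 3.99 CPM in untreated and 7.30, 8.69 and 8.30 CPM in treated controls, and at 5.38, 5.32 and 4.35 CPM in untreated and 6.47, 5.18 and 5.50 CPM in treated bKO-labelled islets. It rose in controls by 0.97 (SE 0.18, adjusted p = 0.000623) and had 0.19 (SE 0.18, adjusted p = 0.381) in bKO-labelled islets. Col9a3, a chain of the cartilage FACIT type IX, stood at 0.454, 0.771 and 0.680 CPM in untreated and 2.02, 2.25 and 1.74 CPM in treated controls, where it rose by 1.66 (SE 0.22, adjusted p = 4.93e-05). In bKO-labelled islets it stood at 0.857, 1.06 and 0.758 CPM untreated and 1.34, 1.31 and 1.21 CPM treated, which did not overlap, with 0.52 (SE 0.22, adjusted p = 0.0536). Col9a3 shares 234 bases, or 6.07% of its exons, with Tcfl5 on the opposite strand, so part of its count may be that gene's. Col22a1, under 1 CPM and outside the naming rule, was also called higher in controls alone. Its log2 fold change of 2.61 was the largest of the collagen genes there. It rested on 5, 3 and 4 counts untreated and 6, 57 and 19 counts treated. The call was kept in all 21 alternative settings that tested it. Without both libraries Col22a1 was called in bKO-labelled islets too, at 1.71 (adjusted p = 0.0398).

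Of the short chain network collagens, Col8a1, made in vessel walls, stood at 23.7 ± 2.58 CPM in untreated and 35.0 ± 13.8 CPM in treated controls (SD, n = 3) and was called in neither genotype, with 0.56 (SE 0.26, adjusted p = 0.0794) for controls. The control value passed the test in 6 of 23 alternative settings, DESeq2 and the compared groups alone among them, and without both libraries it was 0.80 (adjusted p = 0.00373). Its partner Col8a2 stood at 1.16, 1.07 and 2.08 CPM in untreated and 0.564, 0.248 and 0.361 CPM in treated controls, where it fell by 1.91 (SE 0.40, adjusted p = 0.00165) on the log2 scale. In bKO-labelled islets Col8a2 stood at 0.719, 0.890 and 0.480 CPM untreated and 0.588, 0.945 and 0.425 CPM treated, overlapping groups with -0.08 (SE 0.40, adjusted p = 0.872). Col10a1, known from hypertrophic cartilage, fell in controls by 1.12 (SE 0.30, adjusted p = 0.00645) from 10.0, 11.9 and 7.43 CPM to 4.25, 2.92 and 6.46 CPM and had -0.67 (SE 0.30, adjusted p = 0.0685) in bKO-labelled islets, where it was called without both libraries at -0.77 (adjusted p = 0.027). Col7a1, which makes the anchoring fibrils of skin, was called in neither genotype at -0.59 (SE 0.46, adjusted p = 0.287) and 0.40 (SE 0.46, adjusted p = 0.469). Col28a1, known from peripheral nerve, fell in bKO-labelled islets by 0.58 (SE 0.16, adjusted p = 0.00879), and in controls had -0.40 (SE 0.16, adjusted p = 0.0503).

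The cytokine response was called in controls alone for 8 members and in bKO-labelled islets alone for 8 others, 18.6% each, against 9.48% and 11.3% of all genes. With both treated replicates 2 left out these counts were 11 (25.6%) and 2 (4.65%), against 7.73% and 9.70% of all genes. A call in 1 genotype is no test of a difference, so the difference between the responses was tested itself. None of the 43 collagen genes was called in edgeR's quasi-likelihood test of that difference, where 0.00% of all 19800 genes were, and at an unadjusted p under 0.05 there were 6 of 43 collagen genes, against 10.9% of all genes. DESeq2, which called 0.939% of all genes for the difference, and limma-voom called 0 collagen genes as well, and without both treated replicates 2 the count was again 0. The smallest adjusted p was that of Col9a3, whose response was lower in bKO-labelled islets by 1.14 on the log2 scale (95% interval -1.81 to -0.47, adjusted p = 0.3). For Col8a2 the difference was 1.83 (0.58 to 3.08), for Col11a2 -1.18 (-2.00 to -0.36) and for Col23a1 0.89 (0.01 to 1.76). Col1a1 had a difference of 0.57 with an interval of -0.74 to 1.87, so these libraries allow both no difference and one of several fold. The calls of Col1a2, Col3a1, Col5a1 and Col5a2 in 1 genotype do not show that the genotypes differ.

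Between the genotypes in untreated islets, no collagen gene other than Col6a4 was called. Col1a1 differed by 0.14 (-0.79 to 1.06), Col3a1 by 0.10 (-0.69 to 0.89) and Col4a1 by 0.07 (-0.43 to 0.57) on the log2 scale, bKO-labelled minus control. The median over the 43 genes was 0.10 in untreated islets, against -0.01 over all genes, and 0.61 in treated islets, against 0.005 over all genes. The value in treated islets turned to -0.18 without both treated replicates 2, against -0.03 over all genes. Acinar markers, a measure of exocrine tissue carried along, summed to 4564 to 7348 CPM in untreated controls and 2070 to 3354 CPM in untreated bKO-labelled islets, with 0 of 10 called between them. Their part in the genotype comparison was not tested.

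Genes that make and join collagen chains were counted from lists of their roles. Over all genes, the shares to set beside each list were 60.6% called in controls (26.8% higher and 33.9% lower). In bKO-labelled islets they were 62.4% (28.8% higher and 33.6% lower). Of 18 genes for folding and modification, 6 were called higher and 4 lower in controls, and 7 higher and 4 lower in bKO-labelled islets. P4hb, the beta subunit of prolyl 4-hydroxylase, rose from 1061 ± 18.4 to 1609.9 ± 101 CPM in controls (SD, n = 3), by 0.60 (SE 0.07, adjusted p = 2.09e-05), and by 0.66 (SE 0.07, adjusted p = 8.76e-06) in bKO-labelled islets. P4ha1, its catalytic subunit, rose by 0.74 and 1.00 (adjusted p = 0.00116 and 0.000125). P3h2, a prolyl 3-hydroxylase, fell by 1.35 and 1.15, and Colgalt2, a collagen galactosyltransferase, fell by 1.57 and 1.99, with adjusted p from 9.75e-06 to 0.00016. P4hb hardly differed between replicate 2 and the other libraries of its treated groups, at 1.01 and 1.04 times their mean. Most of the list moved with the collagens. In replicate 2 of the treated bKO-labelled islets 16 of 18 genes were high (median ratio 1.46), and in that of the treated controls 15 of 18 were low (0.696).

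Of the 6 crosslinking enzymes, 3 were called higher in controls and 6 in bKO-labelled islets, against 26.8% and 28.8% of all genes. The median log2 fold changes of the 6 enzymes were 0.88 and 1.30, an order that turned to 1.20 and 0.745 without both treated replicates 2. Lox, a lysyl oxidase that joins fibrillar chains, stood at 56.4, 59.4 and 77.3 CPM in untreated and 263, 90.5 and 178 CPM in treated controls and rose by 1.46 (SE 0.41, adjusted p = 0.00945). In bKO-labelled islets Lox stood at 68.2, 66.6 and 67.5 CPM untreated and 138, 425 and 181 CPM treated and rose by 1.88 (SE 0.42, adjusted p = 0.00217). Loxl2, which acts on type IV collagen, rose by 1.67 (SE 0.22, adjusted p = 5.69e-05) in controls and by 1.99 (SE 0.22, adjusted p = 1.41e-05) in bKO-labelled islets. Of 8 propeptide processing genes, 2 were called higher in controls and 3 in bKO-labelled islets, and none lower. Adamts14, which removes amino-terminal propeptides, rose from 1.98 ± 0.273 to 8.03 ± 2.78 CPM in controls (SD, n = 3), by 2.01 (SE 0.30, adjusted p = 0.00013), and by 2.40 (SE 0.30, adjusted p = 3.35e-05) in bKO-labelled islets. Tll1, a proteinase for the carboxy-terminal propeptide, rose by 0.99 and 1.25 (adjusted p = 0.000346 and 5.8e-05).

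Among 9 tested collagen receptors, 5 were called higher in each genotype and none lower. Over all genes, 26.8% were called higher in controls and 28.8% in bKO-labelled islets. Itga1, the alpha1 integrin chain that binds type IV collagen, rose by 1.40 (SE 0.15, adjusted p = 1.3e-05) in controls and by 1.41 (SE 0.15, adjusted p = 1.13e-05) in bKO-labelled islets, and Itgb1, its beta partner, by 0.49 and 0.75 (adjusted p = 0.00912 and 0.00065). Lair1, a collagen receptor of immune cells, rose by 0.88 and 1.12 (adjusted p = 0.000786 and 0.000144), and 11 of 12 macrophage markers were called higher in each genotype, with summed levels of 197 to 238 CPM in untreated and 546 to 650 CPM in treated controls. Of 17 basement membrane partners, 8 were called higher and 1 lower in controls, and 13 higher and 1 lower in bKO-labelled islets. Lama3, a laminin chain of epithelial basement membranes, rose from 10.4 ± 0.736 to 54.1 ± 11.6 CPM in controls (SD, n = 3), by 2.38 (SE 0.26, adjusted p = 1.33e-05), and by 2.83 (SE 0.27, adjusted p = 3.43e-06) in bKO-labelled islets. Nid2, a nidogen that links laminin to type IV collagen, fell by 1.28 and 1.06 (adjusted p = 0.000868 and 0.00279).

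In the list of TGF-beta signalling, whose ligands are known inducers of fibrillar collagen, 2 of 13 genes were called higher and 1 lower in controls, and 4 higher and none lower in bKO-labelled islets. Over all genes the shares were 26.8% higher and 33.9% lower in controls, and 28.8% and 33.6% in bKO-labelled islets. Tgfbi, a matrix protein induced by TGF-beta, rose by 1.08 (SE 0.17, adjusted p = 0.000234) in controls and by 1.02 (SE 0.17, adjusted p = 0.000325) in bKO-labelled islets. Smad2, a signal transducer of the pathway, rose by 0.23 and 0.37 (adjusted p = 0.00603 and 0.000236), and the receptor Tgfbr1 fell in controls by 0.68 (SE 0.17, adjusted p = 0.00516). With both libraries left out, the folding list gave 9 calls higher and 4 lower in controls and 7 and 4 in bKO-labelled islets. The crosslinking list then gave 6 calls higher in controls and 5 in bKO-labelled islets, the processing list 6 and 3, the receptor list 6 and 6, the basement membrane list 12 and 13, and the TGF-beta list 5 and 4. Calls lower numbered 0 in controls and 1 in bKO-labelled islets for the processing list, 2 and 3 for the basement membrane list and 1 and 4 for the TGF-beta list, and the crosslinking and receptor lists had 0. The shares of all genes called in that fit, given with the counts of collagen genes above, are for either direction. Shares by direction are not given for it, so these higher and lower counts have no background of their own.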

How the data were processed

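Per the labels, total RNA of islets was sequenced on an Illumina NovaSeq, and the groups come from the sample titles. The authors deposited raw counts per gene, in a full table of 55536 genes, used here, and in a filtered table of 26532 of them with the same values. The submitters' processing notes name the GRCm38 genome, STAR 2.5.2a, featureCounts 1.6.2, cutadapt 1.16, FastQC 0.11.7 and DESeq2 1.30.0. No source used here gives the annotation release or the use of strand, which leaves reads in overlaps between genes uncertain.

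From the counts, genes were kept by filterByExpr, scaled by TMM and tested in edgeR 4.0.16 (R 4.3.3) by the quasi-likelihood test, with 1 coefficient per group over 12 libraries and Benjamini-Hochberg adjustment over 19800 genes at 0.05. The fit was also run on simulated counts, drawn independently for each library. Those counts held no shift like that of the treated replicates 2 and no shared mice. That run therefore cannot speak for calls that turn on either. No 2 libraries of a group agreed within sampling noise (smallest chi-square per degree of freedom 14.96). Alternatives were other scalings, filters, DESeq2 1.42.0, limma-voom (limma 3.58.1), the compared groups alone, a replicate block, the filtered table and leaving out each library.

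Members with a group mean of 5 CPM or more, or called with a mean of 1 CPM or more, were named with values, with up to 4 genes of each pathway list per cytokine comparison, by smallest adjusted p. The members and the lists were chosen with earlier results of these data known. Gene positions are from GENCODE M21 by gene ID (44 of 44 members), and promoters from RefSeq by symbol (35 of 44). Replicates are not stated to be separate cultures or mice, so p-values measure the spread between these libraries.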

Additional observations from a re-analysis of the deposited data

How the results depend on the processing

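No named collagen gene reversed a called direction under any alternative. The 15 calls in controls came to 13 to 16 under other scalings, filters, tools and tables, apart from 19 with scaling by library totals, 18 with the replicate block and 28 (17 higher, 11 lower) without both treated replicates 2, the setting added after seeing the data. Leaving out 1 library at a time gave 13 to 21 in controls, 10 to 19 in bKO-labelled islets, 1 between untreated genotypes, 0 to 1 between treated genotypes and 0 for the difference in response. In bKO-labelled islets the count fell to 10 without replicate 2 or without replicate 3 of the untreated bKO-labelled islets, and to 11 (9 lower, 2 higher) when replicate 2 of the treated ones was dropped. Between treated genotypes DESeq2 called 2 collagen genes, the compared groups alone gave 0, and leaving out replicate 2 or replicate 3 of the treated controls gave 0. DESeq2 called 20 in bKO-labelled islets (12 higher, 8 lower), and the compared groups alone gave 11. Scaling by library totals moved the median of all genes from -0.10 to -0.33 in controls and from -0.06 to -0.29 in bKO-labelled islets, and the split of calls in bKO-labelled islets from 8 higher and 7 lower to 3 higher and 11 lower. With the DESeq2 size factors that split was 11 and 6, and with limma-voom 5 and 9. The correlations of same-numbered libraries within a genotype ran from -0.10 to 0.10, and those of differently numbered ones from -0.18 to 0.20. With 3 libraries a group these values cannot show whether same-numbered libraries share mice. The replicate block gave 18 calls in controls (5 higher, 13 lower), 13 in bKO-labelled islets (4 higher, 9 lower), 1 and 1 between genotypes and 0 for the difference. For the difference in response, the fit of compared groups alone is the reported fit.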
